A study of Drosophila melanogaster with 16 samples.

Results

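Innexins are the proteins that build gap junctions in flies. The family was taken as the 8 innexin genes of Drosophila melanogaster, shakB, ogre, Inx2, Inx3, Inx5, Inx6, Inx7 and zpg, found by gene symbol. All 8 were among the 17559 genes counted in P1 neurons, male brain neurons that express fruitless and take part in courtship. The rule used gene symbols and no measured value, though earlier results of these data were known when the family was chosen. Per exon length, shakB had the highest level of the family in 7 of 8 libraries, ogre, Inx2 and Inx3 had lower levels that varied widely between libraries, and the other 4 genes had between 0 and 6 counts in all libraries together. No innexin differed between mated and naive males after adjustment over all tested genes.

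A gap junction joins the cytoplasm of neighbouring cells through paired hemichannels, and lets ions and small molecules pass directly between them. Invertebrates build these channels from innexins, a family unrelated in sequence to the connexins of vertebrates. In the fly nervous system they form electrical synapses between neurons and also couple glial cells to each other.

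The males were UAS>stop>GFP/+; fruFLP/NP2631-Gal4, in which green fluorescent protein marks cells where the NP2631-Gal4 driver and a recombinase made from the fruitless locus coincide. Both groups carried this genotype and were isolated for 4 to 6 days. Males of the naive group stayed virgin, and males of the mated group were then paired with a female. Cells of the cluster, put at 12 by the labels, were taken into a patch pipette at a stated age of 3 to 6 days. An age of 3 days is shorter than 4 days of isolation, and these ranges were not reconciled here. Each group had 4 libraries, and each library was sequenced in an A and a B run that were summed here. The study's design speaks of 4 sets of naive and mated animals in pairs, but the labels do not tie a naive library to a mated one, so all tests between groups are unpaired. The labels do not give the number of cells or animals in a library, so p-values measure the spread between these libraries.

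The libraries held 6897560 to 13651313 counts each. In pairs of runs from the same library, chi-square per degree of freedom was 0.981 to 1.02, so runs differed by about counting error. All 6 neuron markers had counts in all 8 libraries, with elav, a neuronal RNA-binding protein, between 417 and 1226 CPM (counts-per-million units on the scaled library size). Markers of other cell types had counts as well, and the source of this RNA was not tested. The glial transcription factor repo had counts in 6 of 8 libraries, up to 10.1 CPM, and the fat body yolk gene Yp1 had 0.483 to 11.9 CPM in naive and 18.6 to 391 CPM in mated libraries.

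shakB (FBgn0085387) encodes the innexin of the electrical synapses of the giant fibre escape circuit. It lies on the minus strand of chromosome X, at 20761071 to 20927050 of the BDGP6 assembly, and has 8 annotated transcripts with 18308 bp of exon in all. The counts are per gene and do not separate these transcripts. Genes annotated within its span shared 0 bp of exon with it.

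The naive libraries 1 to 4 had 834, 739, 1103 and 817 CPM of shakB. The mated libraries 1 to 4 had 351, 427, 663 and 628 CPM. Each naive library was above each mated library, with the naive mean at 873 ± 159 CPM (SD, n = 4) and the mated mean at 518 ± 152 CPM (SD, n = 4). These levels rested on 3036 to 9113 counts per library, more in every library than any other innexin had.

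ogre (FBgn0004646) encodes an innexin known from glia and from the development of the optic lobe. It lies on the minus strand of chromosome X at 6973620 to 6991318 and has 6 annotated transcripts. Its 3940 bp of exon share 403 bp with the antisense gene lncRNA:CR44084, which had 0 counts in all 8 libraries. Whether the counting used strand is not given in the sources used here.

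The naive libraries 1 to 4 had 16.5, 0.806, 2.80 and 23.9 CPM of ogre. The mated libraries 1 to 4 had 57.0, 103, 25.1 and 26.9 CPM. The groups did not overlap, but the gap between the highest naive library (23.9 CPM) and the lowest mated library (25.1 CPM) was small beside the spread within each group. Naive library 2 rested on 5 counts and naive library 3 on 17, against 1184 counts in mated library 2.

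Inx2 (FBgn0027108) encodes an innexin of epithelia and glia that can form mixed channels with other innexins. It lies on the plus strand of chromosome X at 6998672 to 7004151, beside ogre and Inx7, with 4 annotated transcripts and 5480 bp of exon. The naive libraries 1 to 4 had 32.1, 20.1, 9.06 and 23.7 CPM. The mated libraries 1 to 4 had 58.9, 100, 20.9 and 77.5 CPM. The groups overlapped, because mated library 3 fell below naive libraries 1 and 4.

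Inx3 (FBgn0265274) encodes an innexin of epithelia that is known to form channels together with Inx2 in the embryonic epidermis. It lies on the minus strand of chromosome 3R at 28853606 to 28859497, with 3 annotated transcripts and 2242 bp of exon. It lies within the span of spg on the opposite strand, with which it shares 0 bp of exon. The naive libraries 1 to 4 had 8.95, 1.29, 2.64 and 13.5 CPM. The mated libraries 1 to 4 had 21.1, 56.4, 5.90 and 33.4 CPM. Here too mated library 3 was low, below naive libraries 1 and 4, and the groups overlapped.

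**Figure D1:**
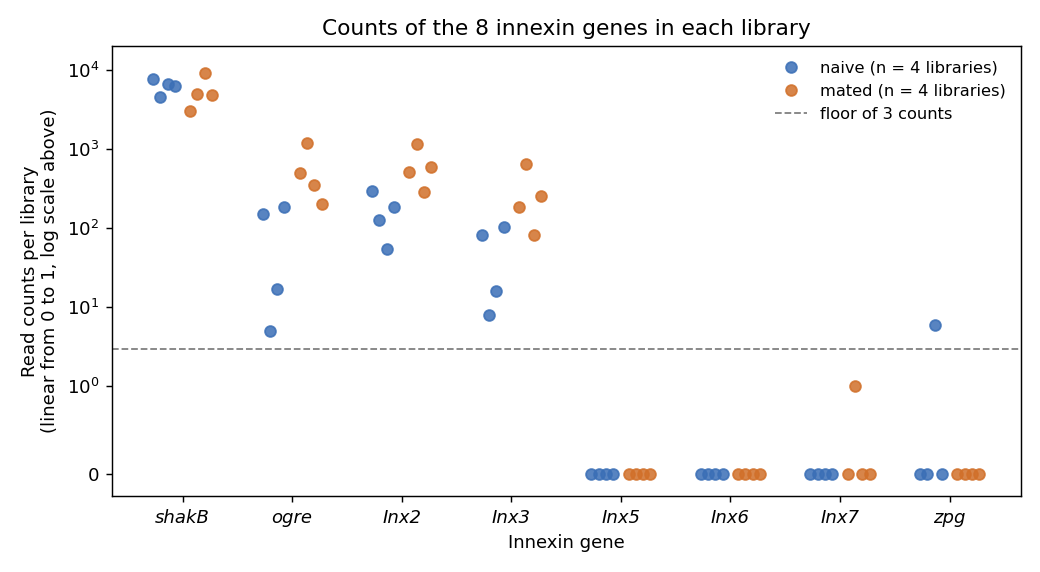
Read counts of the 8 innexins, 1 point per library, on an axis that is linear from 0 to 1 and logarithmic above, with the floor of 3 counts as a dashed line. shakB stands at 3036 to 9113 counts, ogre, Inx2 and Inx3 spread from 5 to 1184, and the other 4 genes lie at or near 0.

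Of the 4 remaining members, Inx5 (FBgn0030989, chromosome X, 19168777 to 19170883) and Inx6 (FBgn0027107, chromosome X, 20267821 to 20269769) had 0 counts in each library. Taking 3 counts as the limit that a count of 0 allows, their levels were below 0.218 to 0.494 CPM depending on the library, a limit that covers counting error only. Inx6 and Inx7 are known for electrical coupling between neurons of the mushroom body in memory formation. Inx7 (FBgn0027106, chromosome X, 6991612 to 6993612) had 1 count in all, in the B run of mated library 2. zpg (FBgn0024177, chromosome 3L, 6604366 to 6606032), an innexin that joins germ cells to the somatic cells around them, had 6 counts, all in naive library 3, with 3 in each run. Of the 5 matched germ line markers 4 were at 0 in that library, and between 3 and 5 in every library, so this does not set it apart. The other 7 libraries gave no zpg count, so its detection rests on that library alone. zpg also lies within the span of Rexo5 on the opposite strand. They share 0 bp of exon, and Rexo5 is not among the genes counted.

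ogre, Inx7 and Inx2 are neighbours on chromosome X. Inx7 starts 18.0 kb and Inx2 25.1 kb from the left end of ogre. Although they flank Inx7, ogre and Inx2 had counts in all 8 libraries and Inx7 in 1. Inx3, on another chromosome, varied across libraries in an order close to that of these neighbours. ogre and Inx3 both had their lowest value in naive library 2. ogre, Inx2 and Inx3 were each lower in mated library 3 than in the other mated libraries. For ogre the gap was small, with 25.1 CPM there and 26.9 CPM in mated library 4. All 3 had their highest value in mated library 2. Within the span of ogre, bou had 213 counts in naive library 2, where ogre had 5, and lncRNA:CR43837, between Inx7 and Inx2, had 173 counts in mated library 4.

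**Figure D2:**
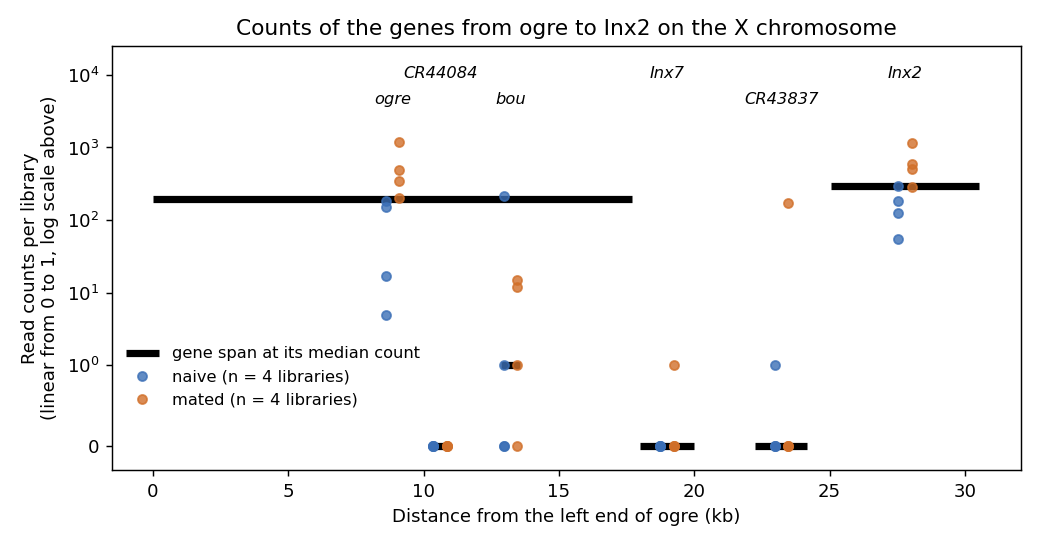
Counts per library of the genes from ogre to Inx2, by distance from the left end of ogre in kb, with black bars for gene spans at their median count and points for the 4 naive and 4 mated libraries. The axis is linear from 0 to 1 and logarithmic above. Inx7 lies at 0 in 7 libraries, while ogre and Inx2 on either side have counts in every library, unlike the other genes plotted.

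To compare genes with each other, CPM was divided by exon length in kb, with the union of all annotated exons as the length. By this measure the mean over 8 libraries was 38.0 ± 13.0 CPM per kb (SD) for shakB, 8.12 ± 8.51 for ogre, 7.98 ± 8.40 for Inx3 and 7.81 ± 5.92 for Inx2. For scale, elav had 76.7 ± 24.6 CPM per kb and the synaptic vesicle gene nSyb 416 ± 93.7. Among 17253 genes ranked by mean CPM per kb, shakB was at rank 1701, ogre at 4476, Inx3 at 4519 and Inx2 at 4561. In single libraries the rank ran from 1220 to 2811 for shakB, 2308 to 7332 for ogre, 2363 to 6397 for Inx3 and 2938 to 5705 for Inx2. These values pool both groups. In naive libraries the means were 3.88 CPM per kb for Inx2, 2.94 for Inx3 and 2.79 for ogre, and in mated libraries 13.5 for ogre, 13.0 for Inx3 and 11.7 for Inx2.

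The 6 pairs of these genes were compared within libraries on log2(CPM per kb + 0.1), by an exact two-sided sign-flip permutation test over 8 libraries whose smallest p is 0.0078, with Benjamini-Hochberg adjustment over the 6 pairs. shakB exceeded Inx2 by 2.56 ± 1.6 (SD) in 8 of 8 libraries (exact p = 0.0078, adjusted p = 0.0312). It exceeded ogre by 3.07 ± 2.52 and Inx3 by 2.96 ± 2.16, each in 7 of 8 libraries (exact p = 0.0156, adjusted p = 0.0312 for both). The exception was mated library 2, where shakB was 0.16 below ogre and 0.11 below Inx3 on that log2 scale. These means pool both groups, whose own means lay apart: shakB minus ogre was 4.89 in naive and 1.26 in mated libraries, shakB minus Inx2 was 3.70 and 1.42, and shakB minus Inx3 was 4.46 and 1.46. Within a group of 4 the exact permutation test cannot go below 0.125, and the adjusted p of these 3 pairs was 0.25 in naive and 0.5 in mated libraries, the latter looked at after seeing the data. Without any 1 of the other 7 libraries the adjusted p of these 3 pairs was 0.0625, and without mated library 2 it was 0.0312.

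None of the other 3 pairs passed the test. The mean log2 difference was -0.51 ± 1.46 between ogre and Inx2, -0.11 ± 0.83 between ogre and Inx3, and 0.40 ± 0.94 between Inx2 and Inx3 (exact permutation test, adjusted p = 0.506, 0.797 and 0.387). The single-library differences of ogre against Inx2 ran from -3.63 to 0.73, so the order of these 3 genes is not resolved by these libraries. The length used for shakB was long. Without division by length shakB exceeded ogre, Inx2 and Inx3 in 8 of 8 libraries each, so the exception of mated library 2 depends on the length. Without that division Inx2 also exceeded Inx3 (exact permutation test, adjusted p = 0.0117). With the longest transcript as the length, shakB exceeded Inx3 in 8 of 8 libraries and ogre in 7.

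shakB made up 76.5%, 90.1%, 93.5% and 73.1% of the summed innexin level per length in naive libraries 1 to 4, and 35.7%, 25.1%, 73.9% and 48.9% in mated libraries 1 to 4. Its share averaged 83.3 ± 9.998% (SD, n = 4) in naive and 45.9 ± 21.1% in mated libraries. Mated library 3, at 73.9%, was within the naive range and the other 3 mated libraries were below it. The shares of ogre, Inx2 and Inx3 averaged 4.63%, 6.92% and 4.91% in naive libraries and 19.4%, 16.9% and 17.8% in mated libraries.

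**Figure D3:**
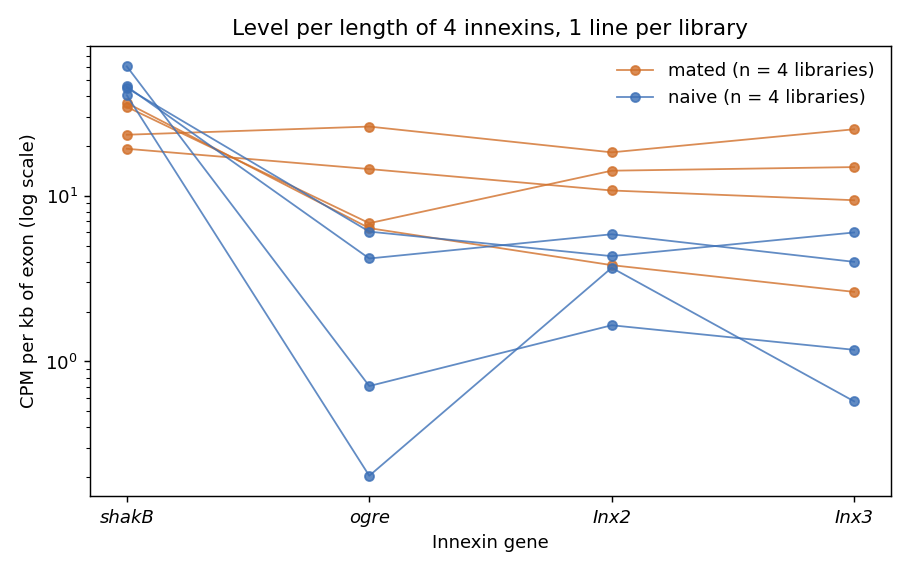
Level of the 4 detected innexins in CPM per kb of exon (log axis), with 1 line per library joining its 4 genes. In naive libraries shakB stands above the others, from 40.4 to 60.2 CPM per kb, and in mated library 2 it meets ogre and Inx3 between 23.3 and 26.1.

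The main comparison of mated with naive males used edgeR's quasi-likelihood test over 7090 genes. 4 of the 8 innexins passed the filter on low counts and were tested, and Inx5, Inx6, Inx7 and zpg were not. 0 of the 4 passed an adjusted p of 0.05, a threshold that 27 of 7090 genes (0.381%) passed, and DESeq2 also gave 0 of 4. By unadjusted p below 0.05, 3 of 4 passed, against a background of 10.6%. The groups did not overlap for 2 of 4, against 7.66% of tested genes.

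The fitted log2 difference, mated minus naive, was -0.75 ± 0.26 (SE) for shakB (95% interval -1.30 to -0.21; edgeR adjusted p = 0.26). For ogre it was 2.26 ± 0.95 (0.22 to 4.30; edgeR adjusted p = 0.409), for Inx2 1.6 ± 0.62 (0.26 to 2.93; edgeR adjusted p = 0.352) and for Inx3 2.14 ± 1.09 (-0.18 to 4.47; edgeR adjusted p = 0.526). Leaving out any 1 library kept the sign of each, with ranges of -0.88 to -0.61 for shakB, 1.72 to 2.96 for ogre, 1.30 to 1.91 for Inx2 and 1.61 to 2.75 for Inx3. Each library title ends in a number that the labels leave unexplained. Within the number 1119, which holds 1 naive and 2 mated libraries, the differences without a test were -1.19, 3.71, 1.94 and 2.04 for shakB, ogre, Inx2 and Inx3. The naive library there is naive library 3, which had the highest shakB and the lowest Inx2 of the 8 libraries. It also had little ogre and Inx3 (2.80 and 2.64 CPM), so these differences rest on an extreme library.

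**Figure D4:**
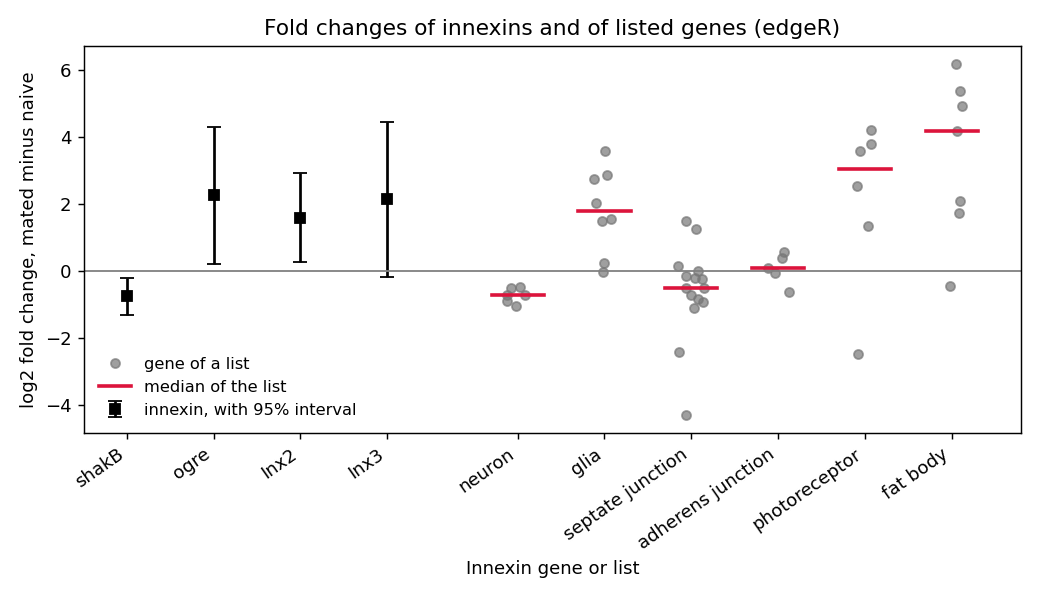
Log2 fold change, mated minus naive, of the 4 tested innexins with 95% intervals, and of listed genes as points with each list's median as a red line. shakB lies at -0.75, and ogre, Inx2 and Inx3 lie at 1.6 to 2.26. The list medians are -0.70 for neuron, 1.81 for glia, 3.06 for photoreceptor and 4.18 for fat body genes. Those of septate and adherens junction genes are -0.49 and 0.10.

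Summed levels of markers of other cell types are given here beside the innexins. The summed level of 10 glia markers was 60.9 to 122 CPM in naive libraries and 189 to 606 CPM in mated libraries, without nrv2, a sodium pump subunit that is also a septate junction gene. Leaving out nrv2 was decided after its values were seen. With it the sum of 11 markers was 133 to 368 CPM in naive and 321 to 1141 CPM in mated libraries. Placed by level, the 8 libraries came in the same order for ogre and for the sum of 10 markers. By the same sum, 2 of 8 libraries had the same place for Inx2, 3 for Inx3 and 0 for shakB. With nrv2 included, the matches were 3 of 8 for ogre, 4 for Inx2, 1 for Inx3 and 1 for shakB. Exact places leave out near matches. Counted from the lowest level, naive libraries 2 and 3 took places 1 and 2 for the sum of 10 markers. They took places 2 and 1 for Inx2 and places 1 and 2 for Inx3. Mated library 3 was further off, at place 5 for this sum and 3 for both genes. shakB ran the other way, with mated libraries 1 and 2 at places 1 and 2 against 7 and 8 for this sum. The summed level of 6 neuron markers was 11256 to 16563 CPM in naive and 5400 to 9613 CPM in mated libraries, without overlap. Fat body and photoreceptor sums did not overlap either. The 8 fat body markers summed to 312 to 659 CPM in naive and 1259 to 2981 CPM in mated libraries. The 9 photoreceptor markers summed to 21.8 to 59.2 CPM in naive and 108 to 578 CPM in mated libraries. Muscle, hemocyte, germ line and trachea sums overlapped. Places of the innexins were matched with glia sums only, which does not set glia apart from these lists.

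The defining glia marker repo was at 0 in naive library 3 and mated library 2, the library with the most ogre. alrm, an astrocyte gene, was at 0 to 1 counts in the naive libraries, and Mdr65, a gene of the blood-brain barrier, had counts only in mated library 4. In each library 0 to 2 of the 11 glia markers were at 0. In bulk samples fewer cells of a type and less RNA per cell cannot be told apart. Whether glial RNA accounts for the innexin levels was not tested.

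**Figure D5:**
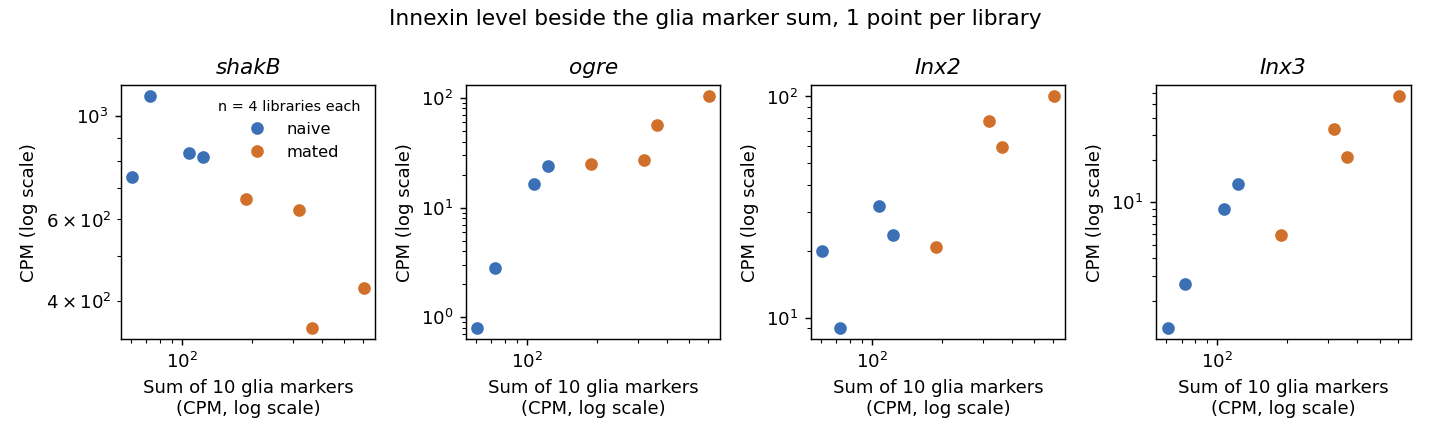
Level of 4 innexins (CPM) against the summed level of 10 glia markers (CPM) in each library, both on log axes, with 4 naive and 4 mated libraries. ogre comes in the same order as this sum, chosen after values were seen. Exact places match in 2 of 8 libraries for Inx2, 3 for Inx3 and 0 for shakB, which leaves out near matches and reversed orders. shakB is lower in the mated libraries, which have the higher sums.

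Genes of each list were read from the same fit across all genes. Of 8 tested glia genes 0 passed the adjusted threshold in edgeR, 5 were higher in mated libraries at unadjusted p below 0.05 and the list's median log2 difference was 1.81, against -0.01 over all tested genes. Gs2, a glutamine synthetase of glia, had a difference of 2.75 ± 0.56 (SE; edgeR adjusted p = 0.0539). repo had 0.25 ± 1.77 (edgeR adjusted p = 0.994). Of 6 neuron genes 0 passed, 5 were lower at unadjusted p below 0.05, and the median was -0.70. elav had -0.70 ± 0.25 (edgeR adjusted p = 0.297), near the -0.75 of shakB.

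Fat body and photoreceptor lists had the only list genes past the threshold. apolpp, a lipid carrier of the fat body, rose by 2.09 (edgeR adjusted p = 0.0163) and Arr2, an arrestin of photoreceptors, by 3.79 (edgeR adjusted p = 0.0196). No marker list gene passed without naive library 1, naive library 4 or mated library 1, and 1 passed without naive library 2 or mated library 2. The medians of these lists were 4.18 over 7 tested fat body genes and 3.06 over 6 photoreceptor genes. None of 4 muscle genes (median 1.47), 2 hemocyte genes (1.32) or the germ line gene AGO3 (-0.77) passed, with 1 muscle gene at unadjusted p below 0.05. No trachea gene passed the filter on low counts.

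Other junction genes were followed as the neighbours of innexins in function. Septate junctions seal epithelial and glial layers, and adherens junctions hold cells together. Of 20 tested junction genes, 15 septate and 5 adherens, 0 passed the adjusted threshold in edgeR, with 1 higher and 3 lower at unadjusted p below 0.05. The septate median log2 difference was -0.49 and the adherens median 0.10. cora, a scaffold of septate junctions, had -0.92 ± 0.30 (edgeR adjusted p = 0.232), and nrv2 had 1.49 ± 0.47 (edgeR adjusted p = 0.22). CadN, a cadherin of neurons, had -0.62 ± 0.24 (edgeR adjusted p = 0.33).

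The likeness of genes to each member was taken as Pearson r of log2 CPM over the 8 libraries, as a description. The points share library depth and the difference between groups, and the median best r over all 7090 tested genes was 0.966. Nearest to shakB were Tdg (0.996), Msp300 (0.985) and CG31211 (0.981). Nearest to ogre were Arp5 (0.982), hoe1 (0.979) and CG5404 (0.978). Nearest to Inx2 were Nagk (0.974), MFS9 (0.971) and mnd (0.966), and to Inx3 Pdk (0.974), fng (0.972) and Droj2 (0.972).

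Among members, r over the 8 libraries was 0.923 between ogre and Inx3, 0.88 between Inx2 and Inx3 and 0.753 between ogre and Inx2, and it was -0.659 to -0.807 between shakB and these 3. The median r of shakB with the 6 neuron genes was 0.875, with all 6 above 0, against a median of -0.01 over all tested genes. The median r with the 8 tested glia genes was 0.602 for ogre, 0.717 for Inx2 and 0.678 for Inx3, with all 8 above 0 for each, and -0.644 for shakB. Positive medians were not particular to glia genes. For ogre, Inx2 and Inx3 they were 0.599, 0.445 and 0.532 with 6 photoreceptor genes and 0.51, 0.408 and 0.447 with 7 fat body genes. With 4 muscle genes they were 0.497, 0.475 and 0.526, and with 5 adherens junction genes 0.452, 0.52 and 0.506. With 15 septate junction genes the medians were -0.315, -0.276 and -0.296, and with the neuron genes -0.827, -0.796 and -0.797.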

How the data were processed

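The authors deposited raw read counts per gene, with a column for each of the runs A and B and a column for the sum. The submitters' processing notes name cutadapt, HISAT2 2.2.1, featureCounts 1.6.2, MultiQC, edgeR, limma, DESeq2 2.11 and the builds dm6 and BDGP6, without their roles. Per the labels' protocols, cDNA was amplified for 15 rounds, and the step that adds barcodes took 12 rounds. Each library ran in 2 lanes, and after this amplification reads are not independent molecules. The floor of 3 counts covers counting error only, and edgeR's intervals reflect the spread between libraries.

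Groups came from the labels. Libraries were scaled by TMM in edgeR 4.0.16 (R 4.3.3), filtered by filterByExpr and fitted with robust glmQLFit, with group as the only term and Benjamini-Hochberg adjustment at 0.05. CPM uses the scaled library size. Exon lengths and coordinates came from Ensembl BDGP6 release 115. Likeness used a prior count of 2. The code was run on simulated data with 200 changed genes, as a check of the code only. In the real libraries the fitted biological coefficient of variation, the spread between libraries beyond counting error, was 0.936. Alternatives were other scalings, DESeq2 1.42.0, other filters, single runs, the title number as a factor and leaving out each library.

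Genes were named by a rule: all innexins, list genes past the threshold, defining markers, and the 3 genes most like each tested innexin; Gs2, alrm, Mdr65, cora, nrv2, CadN, bou, spg and the noncoding genes were picked once their values were known. Rexo5, which is not among the genes counted, was named because its span holds zpg. The members and lists were chosen with earlier results of these data known. vas, nos and btl had no match. aka is a synonym of bark and was counted once.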

Additional observations from a re-analysis of the deposited data

Results flagged for a closer look

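With 4 libraries a group, a value is far from the others when its gap to the nearest, over the whole range of the group, exceeds Dixon's 95% critical value. Of 14 groups examined, 2 did so, and chance flags about 1 in 20 groups. The mated group of Inx7 had 1 library at 0.0869 CPM and 3 at 0, so this rests on 1 count. The naive group of zpg had 1 library at 0.989 CPM and 3 at 0, resting on 6 counts. Both flags follow from a single library with any count.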

How the results depend on the processing

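No innexin passed the adjusted threshold in any of 18 alternatives, and no tested innexin changed sign. The adjusted p ranged from 0.113 to 0.702 for shakB, 0.141 to 0.82 for ogre, 0.0835 to 0.752 for Inx2 and 0.152 to 0.895 for Inx3. The 20 junction genes gave 0 calls in each. A minimum of 10 counts in every library left ogre and Inx3 untested and 2 innexins detected. The number of genes past the threshold, 27, was 46 with library-size scaling, which moved the median log2 difference of all genes to 0.17, 424 with DESeq2, 56 without a filter, 64 with at least 10 counts in every library, 47 in the B run, 0 with the title number as a factor, and 6 (without mated library 1) to 53 (without mated library 3) leaving out each library. The marker lists' 2 calls became 4 with library-size scaling, 16 with DESeq2, 5 without a filter, 6 in the B run, 0 with the title number, and 0 to 6 leaving out each library. The 3 pairs whose level differed became 0 in naive libraries alone and 0 in mated libraries alone (the latter added after seeing the data), where the exact test cannot go below 0.125, and 0 to 3 leaving out each library. With the title number as a factor, the group difference rested on number 1119 alone, with 1 naive and 2 mated libraries. Every other number holds libraries of a single group. That fit therefore cannot decide whether the title number accounts for the calls. The causes were not tested. No paired analysis was possible because the labels do not say which naive library goes with which mated library.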
